A study of Homo sapiens with 12 samples.

Results

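Trametinib, an inhibitor of the kinases MEK1/2 that activate ERK, lowered the mRNAs of 9 of 10 genes that drive or time entry into mitosis, and the ribosome footprints on them, in HCT116 cells. The genes were the cyclins CCNA2, CCNB1 and CCNB2, the kinase CDK1, the phosphatases CDC25A, CDC25B and CDC25C, and the kinases WEE1, PLK1 and AURKA. They were chosen by their symbols, and all 10 were found among the 15798 genes counted. All 10 were also among the 10663 genes that were tested, which had 10 or more counts in 3 or more of the input libraries. CDC25C passed this filter only through DMSO, the group where it is high, with 5, 5 and 3 input counts in trametinib. Against these 9 of 10, 16.8% of all tested genes were lower in input and 25.6% in footprints. By the estimates, the fold fall in mRNA was largest for CCNA2, 29.7-fold, and smallest among the 9 for WEE1, 3.51-fold. The 95% intervals of both overlapped those of other genes among the 9. CDC25B was the exception, since its input change did not pass the test and its footprints were 1.33-fold higher relative to those on other mRNAs. That call was lost without trametinib footprint replicate 1 or 2.

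HCT116 is a human colorectal cancer cell line. Cells received either 100 nM trametinib or the solvent DMSO for 24 h, with 3 biological replicates each, and were exposed to cycloheximide, which arrests ribosomes on mRNA, shortly before lysis. Ribosome profiling (Ribo-seq) gave, for each replicate, a library of ribosome footprints from the monosomal fraction and a library of randomly fragmented input RNA. The 12 libraries thus form 4 groups of 3, namely DMSO input, trametinib input, DMSO footprints and trametinib footprints, and all share the same cell line and medium. Coding reads per library ran from 2276693 to 2845568 for input and from 10127477 to 19181588 for footprints. As a check of the treatment, 6 of 6 genes that ERK signalling induces were lower in trametinib in both assays by edgeR. Of all tested genes, 16.8% were lower in input and 25.6% in footprints. Among the 6 was the ERK phosphatase gene DUSP6, whose normalized input count was 1392 ± 206 (SD, n = 3) in DMSO and 6.58 ± 6.10 in trametinib.

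Mitosis begins when CDK1 bound to B-type cyclins becomes active, and cyclin A2 acts before them, in S phase and G2. WEE1 holds CDK1 back by phosphorylating it, CDC25 phosphatases remove that phosphate, and the kinases PLK1 and Aurora A promote the switch. The mRNAs of most of these genes accumulate in G2 and mitosis and are low in resting cells, where the DREAM complex represses many of their promoters. The CCAAT box, bound by NF-Y, and the cell cycle genes homology region (CHR), bound by the MuvB core of DREAM, are short promoter sequences known from such genes.

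RefSeq promoter sequences (GRCh38.p14) matched 8 of the 10 genes, all but AURKA and WEE1. The 200 bases before the canonical transcript start were searched on both strands for the letters CCAAT, for the CHR letters TTTGAA and for the E2F-type letters TTTCGCGC, and no 2 matches overlapped. CCAAT was in 8 of 8 windows and in 28% of 35116 promoter windows of the same length. TTTGAA was in 4 of 8, CCNB2, CDK1, CDC25C and PLK1, and in 10.3% of all windows, while TTTCGCGC was in 1 of 8, CDK1, and in 0.365% of all windows. The promoters of 4 genes are printed because they span the range of responses: CCNB1 and PLK1 fell in both assays, CCNB2 was the one gene called in ribosome density, and CDC25B did not fall. They are written 5′ to 3′ on the strand of the gene, which is the plus strand in all 4. The capitals mark TTTGAA and the CCAAT box, which reads as ATTGG where it lies on the other strand.
CCNB1: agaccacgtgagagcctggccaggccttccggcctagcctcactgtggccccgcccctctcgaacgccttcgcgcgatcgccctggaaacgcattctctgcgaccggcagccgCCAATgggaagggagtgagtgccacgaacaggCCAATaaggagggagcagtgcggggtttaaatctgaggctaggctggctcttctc
CCNB2: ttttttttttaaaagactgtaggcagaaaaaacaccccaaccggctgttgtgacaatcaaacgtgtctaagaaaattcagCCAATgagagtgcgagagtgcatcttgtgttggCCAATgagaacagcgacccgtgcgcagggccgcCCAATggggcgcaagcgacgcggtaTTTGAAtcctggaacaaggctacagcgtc
PLK1: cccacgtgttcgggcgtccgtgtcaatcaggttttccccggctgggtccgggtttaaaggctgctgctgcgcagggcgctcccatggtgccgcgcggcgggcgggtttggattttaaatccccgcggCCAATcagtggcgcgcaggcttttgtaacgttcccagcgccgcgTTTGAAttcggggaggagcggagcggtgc
CDC25B: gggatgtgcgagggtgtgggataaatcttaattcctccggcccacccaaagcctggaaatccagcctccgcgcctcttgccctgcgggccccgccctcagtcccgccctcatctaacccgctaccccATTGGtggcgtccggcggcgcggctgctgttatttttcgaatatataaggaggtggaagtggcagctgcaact
These windows are chr5:69166950-69167149 for CCNB1, chr15:59104946-59105145 for CCNB2, chr16:23678689-23678888 for PLK1 and chr20:3796110-3796309 for CDC25B. In CCNB2 the TTTGAA began 29 bases before the start, with CCAAT boxes at 54, 87 and 120 bases. PLK1 held the same arrangement with 1 CCAAT box, TTTGAA at 29 and CCAAT at 73 bases. CDC25C, with TTTGAA at 30 and CCAAT at 85 bases, and CDK1, with TTTGAA at 13 and 69, CCAAT at 46 and 78 and TTTCGCGC at 128 bases, also held both. CCNB1 and CDC25B held CCAAT but not TTTGAA in this window. Other letters of the CHR were not searched, so a window without TTTGAA is not shown to lack a CHR. A match of letters describes the window and does not show that a factor binds there.

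The first comparison asked how the mRNAs changed when MEK was inhibited. In input, 9 of the 10 genes were lower in trametinib and 0 were higher by edgeR's quasi-likelihood test at an adjusted p under 0.05, against 16.8% of all tested genes lower and 15.4% higher. At an unadjusted p under 0.05 and by DESeq2 the count higher was also 0. The median log2 change of the 10 genes was -3.34, against -0.00 over all tested genes. Counts of the 10 genes together made up 0.147% ± 0.00536 (SD, n = 3) of a DMSO input library and 0.0315% ± 0.00380 of a trametinib input library. Values below are normalized counts, scaled by the size factor of the library, for replicates 1, 2 and 3, and changes are on the log2 scale, trametinib against DMSO, each with a standard error (SE). Lack of overlap between DMSO and trametinib libraries is given as a description, and its share over all tested genes was not determined. With 3 against 3 libraries, an exact permutation test can give no two-sided p below 0.1. In bulk RNA, fewer cells in G2 and mitosis and less mRNA per cell cannot be told apart.

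**Figure D1:**
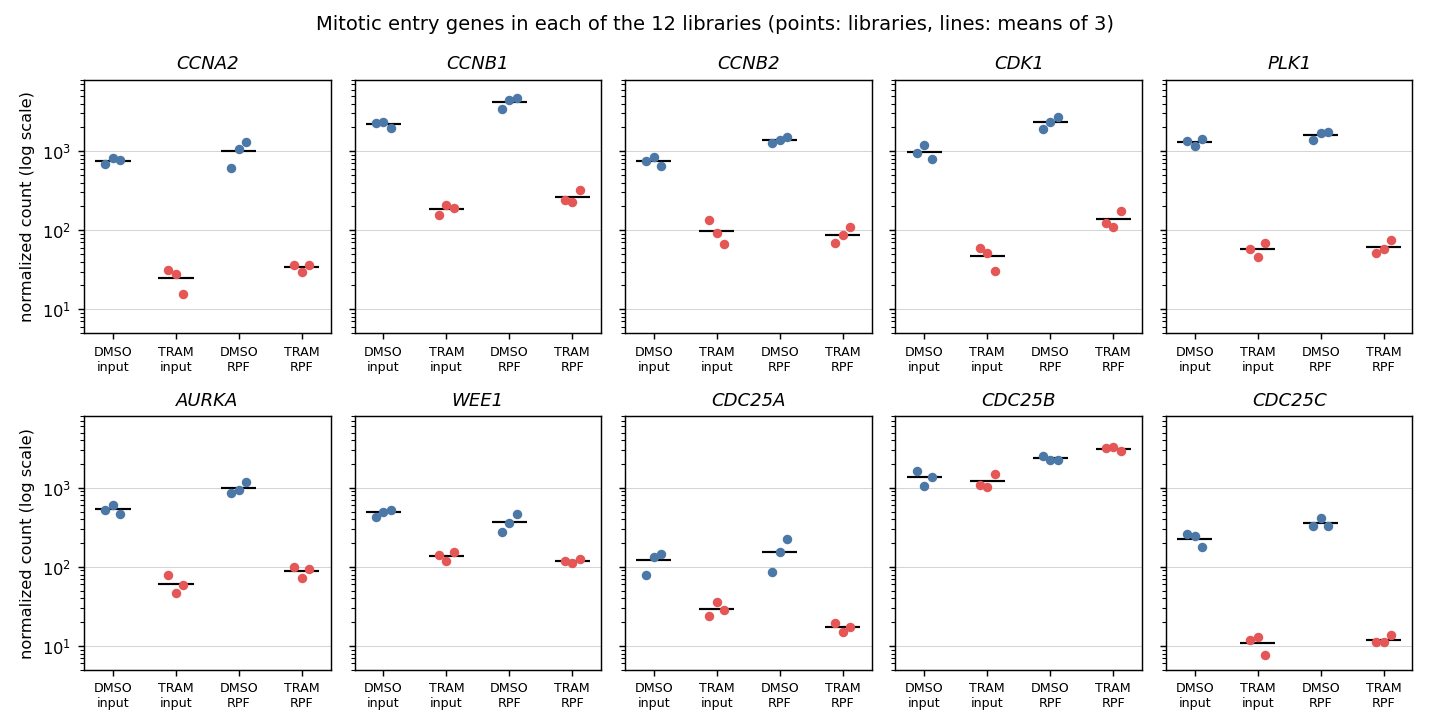
Normalized counts (log scale) of the 10 genes in the 12 libraries, with DMSO in blue, trametinib in red, a point for each library and a line for the mean of 3. In 9 panels every trametinib point lies below every DMSO point of the same assay. In the CDC25B panel the input points overlap and the trametinib footprints lie above those of DMSO. The share of all tested genes with such separation was not determined.

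Among the cyclins, CCNA2 (ENSG00000145386.11, chr4:121816444-121823883, minus strand, GRCh38), which partners CDK2 and CDK1, had the largest fold fall in mRNA. Its input values were 682, 808 and 782 in DMSO and 31.3, 28.3 and 15.4 in trametinib, the latter from 13, 11 and 6 counts. The change was -4.89 (SE 0.24, edgeR adjusted p = 3.31e-08), the 14th lowest of all tested genes. CCNB1 (ENSG00000134057.15, chr5:69167135-69178245, plus strand), the main mitotic partner of CDK1, had input values of 2289, 2361 and 1957 in DMSO and 156, 206 and 190.2 in trametinib. Its change was -3.57 (SE 0.17, edgeR adjusted p = 3.31e-08). CCNB2 (ENSG00000157456.8, chr15:59105126-59125045, plus strand), the second B-type cyclin, fell less in input, from 748, 832 and 639 to 135, 92.6 and 66.8, a change of -2.90 (SE 0.23, edgeR adjusted p = 1.18e-06). For each of the 3 cyclins the DMSO and trametinib libraries did not overlap.

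Footprints on the cyclins fell as well. Of the 10 genes, 9 were lower and 1 was higher in trametinib footprints by edgeR, against 25.6% of all tested genes lower and 23.9% higher. CCNA2 footprints were 603, 1059 and 1314 in DMSO and 36.3, 29.6 and 36.6 in trametinib, a change of -4.85 (SE 0.29, edgeR adjusted p = 3.75e-06). Footprints on CCNB1 were 3410.3, 4482 and 4709 in DMSO and 239, 228 and 322 in trametinib, a change of -4.00 (SE 0.19, edgeR adjusted p = 1.10e-06). In CCNB2 they went from 1266, 1396 and 1499 to 68.8, 86.7 and 109, a change of -3.98 (SE 0.18, edgeR adjusted p = 8.25e-07). CCNB1 and CCNB2 thus differed in their input estimates, -3.57 and -2.90, and had nearly equal footprint estimates. The difference was not tested. Per kb, CCNB2 input was 0.937, 0.490 and 0.382 of CCNB1 input in trametinib, the last within the DMSO range of 0.355 to 0.383. The footprint values of DMSO and trametinib did not overlap for any of the cyclins.

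CDK1 (ENSG00000170312.17, chr10:60778331-60794852, plus strand), the catalytic partner of these cyclins, fell 20.2-fold in input. Its values were 934, 1195 and 794 in DMSO and 60.2, 51.5 and 30.9 in trametinib, from 25, 20 and 12 counts, a change of -4.34 (SE 0.25, edgeR adjusted p = 9.81e-08). The footprints fell 16.8-fold, from 1903, 2329 and 2702 to 125, 110.1 and 177, a change of -4.07 (SE 0.21, edgeR adjusted p = 1.68e-06). CDK1 was then set against its cyclin CCNB1. Per kb of coding sequence the CCNB1 level was 1.25 ± 0.0644 (SD, n = 3) times that of CDK1 in DMSO footprints and 1.33 ± 0.0859 times in trametinib footprints (exact permutation test, two-sided p = 0.3). In input the same ratio was 1.58 ± 0.191 in DMSO and 2.92 ± 1.23 in trametinib, where the replicates ranged from 1.78 to 4.23 (exact permutation test, two-sided p = 0.1, adjusted p = 0.12).

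WEE1 (ENSG00000166483.12, chr11:9573670-9593457, plus strand), the kinase that inhibits CDK1, fell least of the 9 by the estimates. Its input values were 434, 501 and 531 in DMSO and 142, 118 and 154 in trametinib, a change of -1.81 (SE 0.18, edgeR adjusted p = 9.29e-06). Footprints were 279, 358 and 469 in DMSO and 119, 111 and 125 in trametinib, a change of -1.64 (SE 0.18, edgeR adjusted p = 1.42e-04). The groups did not overlap in either assay. The mRNA and footprint levels of this inhibitor relative to those of its target were higher in all 3 trametinib replicates. Per kb, WEE1 input was 0.238 ± 0.0613 (SD, n = 3) of CDK1 input in DMSO and 1.48 ± 0.709 of it in trametinib, with ranges of 0.193 to 0.308 and 1.06 to 2.30. In footprints the ratio was 0.0727 ± 0.00646 in DMSO and 0.408 ± 0.0725 in trametinib. The groups of ratios did not overlap in either assay. By an exact permutation test on the log2 ratios, two-sided p was 0.1 in each assay, the smallest that 3 against 3 replicates can give, and 0.12 after Benjamini-Hochberg adjustment over the 6 tests of ratios of levels. CDC25B, whose product opposes WEE1, rose relative to WEE1 as well. Per kb its input was 3.14 ± 0.991 times that of WEE1 in DMSO and 9.75 ± 1.13 times in trametinib. In footprints this ratio was 7.52 ± 2.43 in DMSO and 29.7 ± 3.62 in trametinib, and it was not tested. Protein levels and kinase activity were not measured here.

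The 3 CDC25 phosphatases, which activate cyclin-dependent kinases, responded differently. CDC25C (ENSG00000158402.21, chr5:138285269-138338355, minus strand), known for its role at the G2 to M transition, fell 20.3-fold in input and 29.9-fold in footprints. Its input values were 259, 246 and 178 in DMSO and 12.0, 12.9 and 7.71 in trametinib, from 5, 5 and 3 counts, a change of -4.34 (SE 0.31, edgeR adjusted p = 5.15e-07). The footprints were 327, 413 and 332 in DMSO and 11.1, 11.1 and 13.8 in trametinib, a change of -4.90 (SE 0.18, edgeR adjusted p = 3.17e-07). CDC25A (ENSG00000164045.12, chr3:48157146-48188417, minus strand), which also acts at the start of S phase, was the least abundant of the 10 per kb in DMSO input. Its input values of 79.8, 134 and 148 in DMSO and 24.1, 36.0 and 28.3 in trametinib gave a change of -2.01 (SE 0.32, edgeR adjusted p = 3.94e-04). Its footprints went from 85.5, 154 and 228 to 19.4, 15.2 and 17.6, a change of -3.15 (SE 0.35, edgeR adjusted p = 1.32e-04).

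CDC25B (ENSG00000101224.18, chr20:3786772-3806121, plus strand), which is held to start CDK1 activation at the centrosome, did not share this fall. Its input values were 1652, 1046 and 1365 in DMSO and 1099.8, 1034 and 1507 in trametinib, and the groups overlapped. The input change was -0.15 (SE 0.20, edgeR adjusted p = 0.594). Footprints were 2539.9, 2273 and 2249 in DMSO and 3167, 3310.4 and 2934 in trametinib, all above the DMSO libraries, a change of 0.42 (SE 0.11, edgeR adjusted p = 0.0145). This call was lost without trametinib footprint replicate 1 (adjusted p = 0.0654) or replicate 2 (adjusted p = 0.0733), with changes of 0.41 and 0.37. Scaling by library totals moved the median footprint change of all genes by 0.18 and that of CDC25B to 0.59, so the direction rests on a comparison with the other mRNAs of the library. With CDC25A and CDC25C lower, CDC25B made up more of the CDC25 family. Per kb of coding sequence it held 76.1% ± 5.49 (SD, n = 3) of the 3 CDC25 levels in DMSO input and 96.2% ± 1.24 in trametinib input. In footprints its share was 79.4% ± 3.74 in DMSO and 98.9% ± 0.158 in trametinib, and the groups did not overlap in either assay. By an exact permutation test, two-sided p was 0.1 in each (adjusted p = 0.12), the smallest possible with these replicates, so the test could not decide.

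PLK1 (ENSG00000166851.15, chr16:23677656-23690367, plus strand), the Polo-like kinase that promotes CDC25 activity and WEE1 loss, fell 22.4-fold in input and 26.0-fold in footprints. Its input values were 1342, 1171 and 1409.5 in DMSO and 57.8, 46.3 and 69.4 in trametinib, a change of -4.48 (SE 0.20, edgeR adjusted p = 3.31e-08). The footprints were 1368, 1678 and 1745 in DMSO and 51.6, 57.9 and 75.2 in trametinib, a change of -4.70 (SE 0.18, edgeR adjusted p = 3.69e-07). AURKA (ENSG00000087586.18, chr20:56369389-56392337, minus strand), the Aurora kinase that activates PLK1, fell 8.57-fold in input and 11.2-fold in footprints. Its input values were 528, 611 and 464 in DMSO and 79.4, 46.3 and 59.1 in trametinib, a change of -3.10 (SE 0.22, edgeR adjusted p = 4.79e-07). The footprints were 853, 949.7 and 1174 in DMSO and 99.5, 72.7 and 93.2 in trametinib, a change of -3.48 (SE 0.17, edgeR adjusted p = 1.20e-06). Neither kinase showed overlap between DMSO and trametinib libraries. Of the 30-base stretches of the AURKA coding sequence, 30.7% also occur in transcripts of other symbols (AURKAP1, AURKAP2 and RAB3GAP2), so its counts may rest on part of its sequence. This share over transcripts of any type was 8.24% for CCNB2, 5.17% for PLK1, 1.57% for WEE1 and 0 for the other 6 genes. Over coding transcripts of other symbols alone, the share was 0 for AURKA, and only WEE1 had any, 0.157%.

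**Figure D2:**
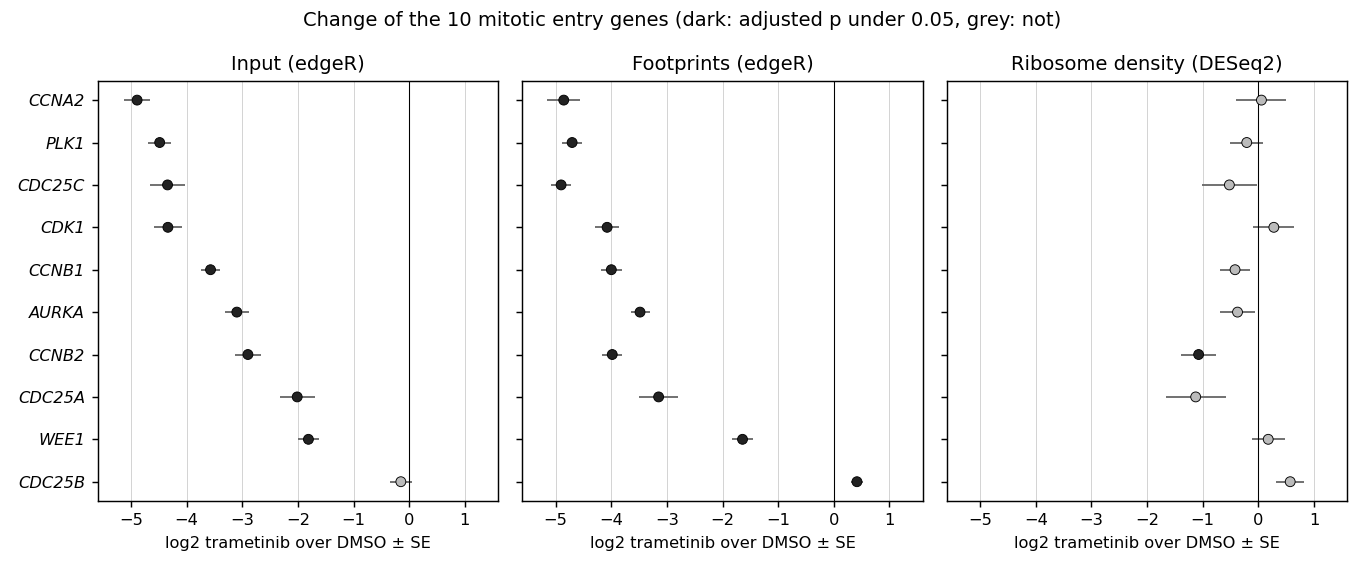
Log2 change of trametinib over DMSO (x axis) with its SE for each of the 10 genes (y axis) in input, in footprints and in ribosome density, with dark points for an adjusted p under 0.05. The genes run from -4.89 for CCNA2 to -0.15 for CDC25B in input, and in ribosome density only CCNB2, at -1.07, is dark.

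The order of the levels changed with treatment. Per kb of coding sequence, CCNB1 led in DMSO input with a normalized count of 1696 ± 166 (SD, n = 3), followed by CDK1 with 1093 ± 228. CDC25B with 778 ± 174, PLK1 with 723 ± 67.9, CCNB2 with 620 ± 80.9 and CCNA2 with 584 ± 51.5 came next, and neighbours among these 4 did not differ beyond their spread. AURKA with 442 ± 61.3, WEE1 with 252 ± 25.9, CDC25C with 160.5 ± 30.7 and CDC25A with 76.6 ± 22.8 were lowest. In trametinib input CDC25B led with 697 ± 147, ahead of CCNB1 with 142 ± 19.5. CCNB2 with 82.1 ± 28.7, WEE1 with 71.3 ± 9.41, CDK1 with 53.3 ± 16.9 and AURKA with 51.0 ± 13.8 followed within each other's spread. PLK1 with 32.0 ± 6.38, CCNA2 with 19.3 ± 6.50, CDC25A with 18.7 ± 3.86 and CDC25C with 7.66 ± 1.95 were lowest. In footprints the leading gene was likewise CCNB1 in DMSO, with 3233 ± 534 per kb, and CDC25B in trametinib, with 1803 ± 109.

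The second comparison asked whether ribosomes on these mRNAs changed beyond the change of the mRNA itself. Ribosome density is the footprint value divided by the input value of the same replicate, and its change was tested as the interaction of assay and treatment by the likelihood ratio test of DESeq2. Of the 10 genes, 1 was lower and 0 were higher, against 1.40% of all tested genes lower and 0.328% higher. At an unadjusted p under 0.05, 2 of the 10 were lower and 1 was higher, against 844 of the 10663 tested genes in either direction. By edgeR 0 of the 10 were called in either direction. The median log2 change of the 10 genes was -0.29, against -0.00 over all tested genes, and 6 of 10 estimates were below 0. The scatter of input and footprint changes sets both estimates of each gene side by side.

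**Figure D3:**
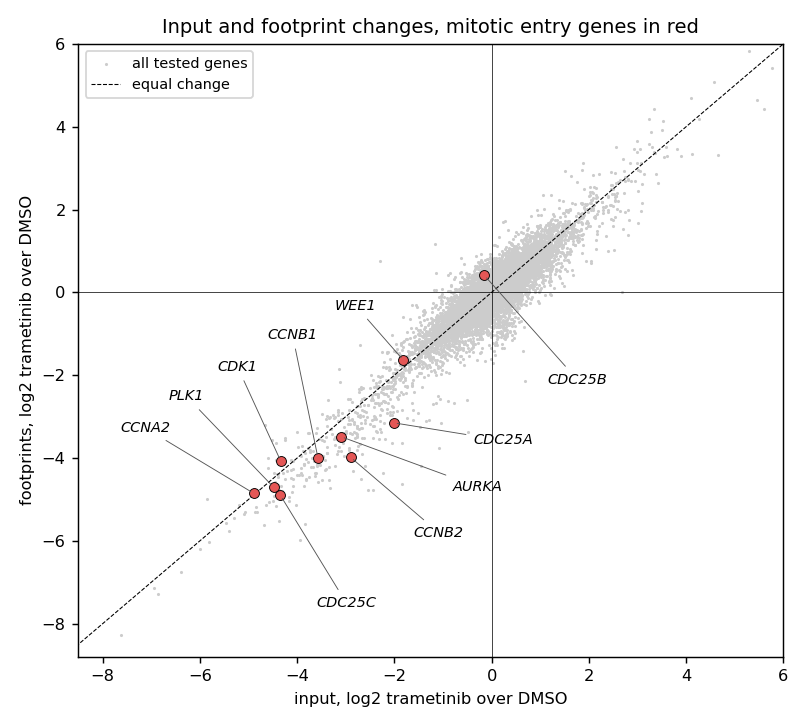
Log2 change of trametinib over DMSO in input (x axis) and in footprints (y axis) for the 10663 tested genes in grey and the 10 mitotic entry genes in red, with a dashed line of equal change. Of the 10, 9 lie in the lower left, with CCNB2 and CDC25A below the line and CDC25B above it near the origin.

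CCNB2 was the gene called. Its ribosome density was 1.69, 1.68 and 2.35 in DMSO and 0.511, 0.936 and 1.63 in trametinib, and the groups did not overlap. The change was -1.07 (SE 0.31, 95% interval -1.68 to -0.46, DESeq2 adjusted p = 0.0375). With a term that pairs the input and footprint libraries of each replicate, the adjusted p was 0.0284. The call was lost by edgeR (adjusted p = 0.223), by limma-trend (0.167), under TMM scaling (0.0680) or library totals (0.104), with a replicate block over all libraries (0.0626), and by edgeR with the pairing term (0.116), with estimates between -1.09 and -0.90. It was kept without DMSO input replicate 2, DMSO footprint replicate 1, trametinib input replicate 3 or trametinib footprint replicate 3, and lost without any 1 of the other 8 libraries, with estimates from -1.28 to -0.77. The highest adjusted p, 0.488, was that without trametinib input replicate 1, which held 56 CCNB2 counts against 36 and 26 in the other replicates.

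The other 9 genes did not pass the test in ribosome density, and their intervals show which changes remain possible. CDC25A was 1.07, 1.15 and 1.54 in DMSO and 0.804, 0.422 and 0.622 in trametinib, without overlap, and its estimate of -1.13 (SE 0.54, 95% interval -2.18 to -0.07, DESeq2 adjusted p = 0.561) rested on 10, 14 and 11 input counts in trametinib. CDC25B was 1.54, 2.17 and 1.65 in DMSO and 2.88, 3.20 and 1.95 in trametinib, with an estimate of 0.57 (SE 0.26, 95% interval 0.07 to 1.07, DESeq2 adjusted p = 0.478). Both had an unadjusted p under 0.05, in opposite directions. The intervals were -0.95 to 0.11 for CCNB1, -0.45 to 1.00 for CDK1, -0.79 to 0.37 for PLK1, -0.99 to 0.24 for AURKA and -0.40 to 0.75 for WEE1. For CCNA2 and CDC25C, whose trametinib input counts were low, they were wider, -0.83 to 0.94 and -1.50 to 0.46.

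**Figure D4:**
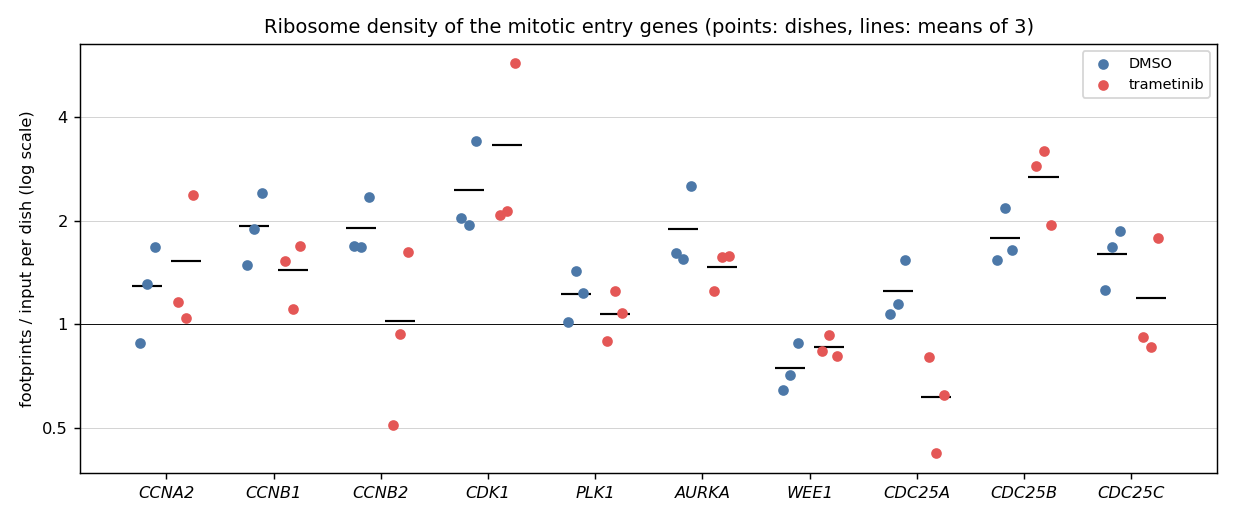
Ribosome density, footprints divided by input of the same replicate (log scale), of the 10 genes in DMSO (blue) and trametinib (red), with a point for each replicate and a line for the mean of 3. The CCNB2 and CDC25A points of the treatments do not overlap, CDK1 lies highest and WEE1 lowest in DMSO.

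The genes also differed in their density at baseline. In DMSO the ratio of mean footprints to mean input was highest for CDK1, at 2.37, above 91.6% of tested genes. CCNB1 with 1.91, CCNB2 with 1.87, AURKA with 1.86 and CDC25B with 1.74 were likewise above 80.0% or more of tested genes. The lowest was WEE1, at 0.755, above 33.0% of tested genes, and the median over all tested genes was 1.02. In trametinib CDK1, with 2.89, and CDC25B, with 2.59, were highest, and their order was not stable. CDC25B was above CDK1 in replicates 1 and 2, with 2.88 against 2.08 and 3.20 against 2.14, and below it in replicate 3, with 1.95 against 5.74, where CDK1 had 12 input counts. CCNB2 was at 0.899 and CDC25A at 0.590 in trametinib, both under the median of 1.01. These ratios compare genes within a library pair and carry no test.

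DMSO footprint replicate 1 had the lowest value of its group for 9 of the 10 genes, CDC25B being the exception, and replicate 3 had the highest for 8. The share of all tested genes with their lowest value in replicate 1 was not determined. Leaving this library out also moved the calls over all genes, from 2727 to 3247 lower and from 2545 to 3176 higher in footprints. The 10 genes made up 0.187% to 0.244% of DMSO footprint counts, against 0.0653% to 0.0684% in trametinib. Without replicate 1, the footprint calls of all 10 genes were kept.

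Other genes of the pathway were counted by list. Of all tested genes, 16.8% were lower and 15.4% higher in input, and 25.6% lower and 23.9% higher in footprints. In ribosome density 1.40% were lower and 0.328% higher, and 844 of 10663 had an unadjusted p under 0.05. With such shares, 0 calls in ribosome density in a short list say little. Of 13 further partners and regulators of CDK1, 6 were lower in input and 0 higher, and 8 were lower and 1 higher in footprints, with median changes of -0.30 and -0.43. PKMYT1, the second kinase that inhibits CDK1, fell from an input level of 312 ± 140 (SD, n = 3) to 11.7 ± 3.51, a change of -4.69 (SE 0.41, edgeR adjusted p = 3.00e-06). CCNF, an F-box protein of the cyclin family, changed by -2.62, CKS1B, a small CDK subunit, by -1.47, and CDK2, the S phase kinase, by -1.24. The gene higher in footprints was ARPP19, a PP2A inhibitor named after its value was seen, with a change of 0.60. MASTL, the Greatwall kinase that acts through ARPP19, was the gene of this list called in ribosome density, with a change of -1.60 (SE 0.40, DESeq2 adjusted p = 0.00619), although edgeR called 0 of the 13.

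Of 11 genes for cofactors and relatives of PLK1 and AURKA, 9 were lower in input and 10 in footprints, and 0 were higher. The largest falls were those of the chromosomal passenger genes AURKB, with an input change of -4.83 (SE 0.24, edgeR adjusted p = 3.31e-08), and CDCA8, with -4.42. INCENP, the scaffold of the same complex, changed by -2.47 and NEDD1, which recruits microtubule nucleators, by -1.35. In ribosome density 0 of the 11 were called by DESeq2 or edgeR, and 1 was lower at an unadjusted p under 0.05.

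Of 8 genes for the destruction of mitotic regulators, 5 were lower in input and in footprints and 0 were higher. UBE2C, an E2 enzyme of the anaphase promoting complex (APC/C), changed by -4.30 in input, its activator CDC20 by -3.57 and the E2 enzyme UBE2S by -2.34. FBXO5 encodes EMI1, an APC/C inhibitor that protects cyclins, and changed by -2.43 in input (SE 0.21, edgeR adjusted p = 3.00e-06) and by -4.78 in footprints. Its ribosome density changed by -2.34 (SE 0.29, DESeq2 adjusted p = 2.84e-12), and edgeR also called it.

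In the G2 checkpoint list 6 of 12 genes were lower in input and 7 in footprints. CLSPN, the claspin adaptor, changed by -3.39, the kinase gene CHEK1 by -1.49 and the stress gene GADD45A by -1.10. SFN, the 14-3-3 sigma protein that sequesters CDK1 and cyclin B1 in the cytoplasm, was the 1 gene higher in both assays, at 1015 ± 270 in DMSO input and 2113 ± 265 in trametinib input, a change of 1.07 (SE 0.19, edgeR adjusted p = 0.00105). Of 13 tested regulators of these promoters, 6 were lower and 1 was higher in input, and 7 were lower and 1 higher in footprints. The activators MYBL2 and FOXM1 changed by -3.38 and -2.76 in input, E2F4, the repressive E2F of DREAM, by -0.77 and RBL2, the DREAM pocket protein p130, by 0.58 (SE 0.14, edgeR adjusted p = 0.00771). In ribosome density DESeq2 and edgeR called 0 genes of either list, and at an unadjusted p under 0.05 there was 1 higher in the first, and 1 higher and 2 lower in the second.

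The fall was not confined to genes of G2 and mitosis. Of 17 genes of S phase entry and DNA replication, 16 were lower in both assays and 0 were higher, with a median input change of -2.70. They ranged from -4.84 for the replication factor CDC45 and -4.58 for the ribonucleotide reductase subunit RRM2 to -1.46 for the helicase subunit MCM6 and -0.39 for the G1 kinase CDK4 among those called. In ribosome density 0 of the 17 were called by DESeq2 or edgeR, and 2 were lower at an unadjusted p under 0.05. Markers of other cell types were low throughout. The summed normalized count of 8 fibroblast, endothelial and immune markers was 67.0 to 86.6 in DMSO input and 103 to 152 in trametinib input, and in each group of input libraries 6 of the 8 had at most 3 counts in every library. Of the 2 tested, VWF, an endothelial gene, was higher in trametinib input by 2.50 (SE 0.47, edgeR adjusted p = 0.00142). Epithelial markers summed to between 29269 and 44463 in DMSO input and to between 48954 and 61128 in trametinib input, and 3 of 6 tested were higher, among them KRT19 by 1.25 (SE 0.16, edgeR adjusted p = 6.89e-05), while the colon markers CDX1 and VIL1 were at 0 in input. The part of these shifts in the fall of the mitotic genes was not tested.

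**Figure D5:**
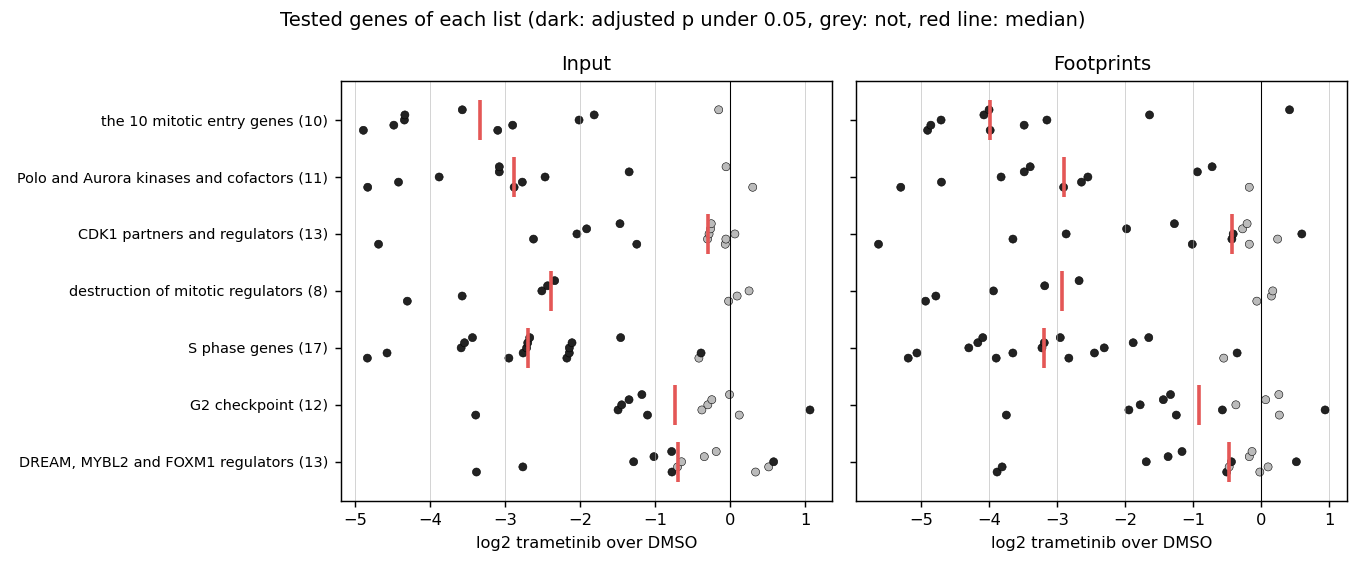
Log2 change of trametinib over DMSO (x axis) of each tested gene of 7 lists (y axis, number tested in parentheses) in input and in footprints, with dark points for an adjusted p under 0.05 and a red line at the median. Of the 7 lists, the 10 mitotic entry genes have the lowest median, -3.34 in input and -3.99 in footprints. In input the lists of Polo and Aurora cofactors and S phase genes follow, and in footprints S phase genes are next, at -3.19. The genes that ERK signalling induces, not drawn, had lower medians, -5.23 in input and -5.62 in footprints.

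The genes whose pattern over the 12 libraries was most like the mean of the 10 were MELK, BUB1, NUF2, FANCI and ANLN, with Pearson's r of 0.999, 0.998, 0.998, 0.997 and 0.997 across the libraries after centring within each assay. The r describes mostly the difference between the treatments, which the libraries share, and 573 of 9257 compared genes reached 0.95. BUB1, a spindle checkpoint kinase, fell from 1356 ± 154 (SD, n = 3) to 111 ± 5.30 in input. MELK, a mitotic kinase, fell from 800.4 ± 67.0 to 124 ± 9.86. Of the 10 genes themselves, 9 had an r between 0.957 and 0.997 with the mean profile, of which each is a part, and CDC25B had an r of -0.32.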

How the data were processed

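Ribo-seq of HCT116 cells was performed by the authors. Adapters were clipped with the FASTX-Toolkit, reads aligning to rRNA and tRNA were discarded with Bowtie 1.2.2, and reads of 25 to 35 nt were mapped to the basic Gencode transcripts and counted inside open reading frames of a single gene symbol. How pseudogenes were treated is not given in the sources used here. The deposited table holds raw counts for 12 libraries and, as a signal column for each, the count divided by a DESeq2 (1.46.0) size factor. Median-of-ratios size factors computed here matched the deposited ones within 0.0001 for 12 of 12 libraries. Columns of fold changes and adjusted p-values by the authors were not used, and 0 columns of library values were left over.

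All tests were run here on raw counts in R 4.3.3, over the 10663 genes that reached 10 counts in 3 or more input libraries. Input and footprints were tested within their 6 libraries with edgeR 4.0.16 (quasi-likelihood, TMM scaling), with SE taken from the estimate and its F statistic. Ribosome density was tested with DESeq2 1.42.0 as the interaction of assay and treatment over 12 libraries, with a likelihood ratio test against the model without it and independent filtering off. Its interval is of the Wald type. P-values were adjusted over all tested genes by the Benjamini-Hochberg method and called under 0.05. Since libraries are scaled to each other, a change of all mRNAs alike cannot be seen. The paper reports less global translation in HCT116 after 24 h of MEK inhibition, a change that these scaled footprint counts cannot show. Alternatives were other tools (limma 3.58.1 among them), scalings, filters, replicate blocks and leaving out each library. Scripts were tested on simulated data.

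The methods of the study take input and footprints from the same lysate, and libraries of equal treatment and number were taken as such a pair, on which each density per replicate rests. Over 7669 genes with a mean of at least 100, deviations from group means correlated within these pairs at 0.816, 0.181 and 0.343 in DMSO but at 0.141, 0.0803 and -0.12 in trametinib, where the counts thus bear the pairing out little. Deviations from group means of equally numbered footprint libraries correlated across treatments at 0.117, 0.133 and 0.294, and those of input libraries at 0.0680, 0.0484 and 0.334. The main tests held no term that pairs libraries across treatments, and a replicate block was run as an alternative. The 10 genes, the other lists and the motifs were chosen with earlier results of these data known. From each other list the genes called in ribosome density and the 2 lowest and 2 highest called input changes were named, and the 5 genes with the highest r to the mean log2 profile. Coordinates and coding lengths are from Gencode for GRCh38, and promoters from RefSeq. Groups were taken from the sample labels.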

Additional observations from a re-analysis of the deposited data

How the results depend on the processing

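Of 450 recomputed changes of single genes, 429 stayed the same in sign and in call, 16 had the same direction but were no longer called, and 5 turned in direction, none of these 5 called in the first place. The CDC25B input change ranged from -0.34 to 0.018 when 1 library was left out, and turned to 0.018 without DMSO input replicate 1. The CCNA2 ribosome density change was -0.061 by limma-trend and ranged from -0.20 to 0.31 when 1 library was left out, turning to -0.00 without DMSO input replicate 2, -0.20 without DMSO footprint replicate 1 and -0.19 without trametinib input replicate 3. The counts of 9 genes lower in input and 9 lower in footprints held under every alternative. The count higher in footprints went from 1 to 0 at a minimum of 2-fold and ranged from 0 to 1 when 1 library was left out. The count lower in ribosome density went from 1 to 0 by edgeR, by limma-trend, under TMM scaling, under library totals, with a replicate block over all libraries and by edgeR with a term for each replicate pair (an alternative chosen after seeing the data), and ranged from 0 to 1 when 1 library was left out. The cause was not tested. The replicate block changed no other call on the 10 genes and left 9 lower in input and 9 lower and 1 higher in footprints.

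Over all genes, those higher in ribosome density numbered 35, against 10 by edgeR, 8 by limma-trend, 142 under library totals and 21 with the replicate block, and 7 to 23 without 1 of 8 libraries. Those lower numbered 149, against 87 by edgeR and 112 under library totals. With a minimum of 2-fold, 932 were lower and 720 higher in input, and 998 lower and 737 higher in footprints, while leaving out trametinib input replicate 2 left 1069 higher in input. Library totals gave 1944 lower and 3577 higher in footprints, against 2727 and 2545. Counts of 3 to 27 in trametinib input limit what can be seen of ribosome density for CCNA2, CDC25A, CDC25C, CDK1 and PLK1.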
